A study of Medicago truncatula with 12 samples.

Results

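The step from 6 h to 12 h of salt stress was described by setting the Salt_12h library of *M. truncatula* seedlings against the Salt_6h library. These were 2 of the 12 RNA-seq libraries of the series, which covered 0, 2, 6 and 12 h of cold, drought and salt with 1 library per condition. All seedlings were wild-type Jemalong A17, 4 weeks old, grown at 22 to 24 °C with 14 h of light and 10 h of darkness. Salt-treated seedlings stood in nutrient solution with NaCl, drought-treated seedlings lay on dry paper and cold-treated seedlings were chilled, and the 0 h libraries of the 3 stresses were untreated. The methods speak of triplicate treatments, but no separate libraries of a condition were analysed here. No p-value is given, and the spread among the 3 libraries at 0 h served as the guide to noise. Of 54073 genes in the files, the 22852 with an FPKM (fragments scaled by transcript length and by the depth of the library) of at least 1 in either library were tested. The threshold for a call was a ratio of FPKM, 12 h over 6 h, of 2 or more or of 0.5 or less.

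Salt in the root medium first makes water harder to take up, and sodium and chloride then build up in the tissues over a longer time. Plants answer with closure of stomata, synthesis of compatible solutes and sugars, pumping of sodium into the vacuole and out of the cell, and slower growth. SWEET proteins are membrane transporters that let sugars move along their gradient, and from *Arabidopsis* they are known to take part in phloem loading, in nectar and seed filling and in storage of sugars in the vacuole. The identifiers in the files carry no gene names or functions and 0 of them matched the gene table at hand, so that only the *MtSWEET* genes and *ACTIN*, whose identifiers the study lists, could be named. For the same reason the labelled tissue could not be checked against marker genes and pathway lists could not be counted.

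Libraries held 12103751 to 25205150 fragments on genes. Salt_12h, with 13189281, was shallower than Salt_6h, with 20755907, and 29276 genes were above 0 at 12 h against 31699 at 6 h. There was no unstressed library at 2, 6 or 12 h, so that salt and the time of day cannot be told apart. In whole seedlings, fewer cells of a type and less RNA per cell cannot be told apart either.

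Between 6 h and 12 h more genes became lower than became higher. Of the genes tested, 3670 (16.1%) were called, of which 1086 (4.75%) were higher at 12 h and 2584 (11.3%) were lower. Between pairs of the 0 h libraries the same rule called 2.34% (Cold_0h against Drought_0h), 6.3% (Cold_0h against Salt_0h) and 6.05% (Drought_0h against Salt_0h), with nearly equal numbers in each direction. The median log2 fold over all genes tested was -0.13, and after centring on it 1396 genes were higher and 2180 lower. The genes higher at 12 h made up 4.47% of all FPKM at 12 h and 1.63% at 6 h, whereas the genes lower at 12 h made up 1.98% at 12 h and 5.48% at 6 h.

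The size of the differences set the lower genes apart from noise more clearly than the higher ones. The 744 genes at least 4-fold lower at 12 h were 3.26% of the genes tested, against at most 1.26% in either direction between 0 h libraries. The 285 genes at least 4-fold higher were 1.25%, which is within that limit. Of all calls, 3226 (87.9%; 850 higher and 2376 lower) exceeded the range of the same gene over the 3 libraries at 0 h, on the log2(FPKM + 0.1) scale. A 95% Clopper-Pearson interval on the recovered fragments, which covers counting error only, lay off no change for 3200 calls and wholly past 2-fold for 1374 (370 higher and 1004 lower). Many genes stood close to the threshold, with 452 between 1 and 1.1 on the log2 scale and 678 between 0.9 and 1, so that a called gene and an uncalled one can differ by very little.

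**Figure D1:**
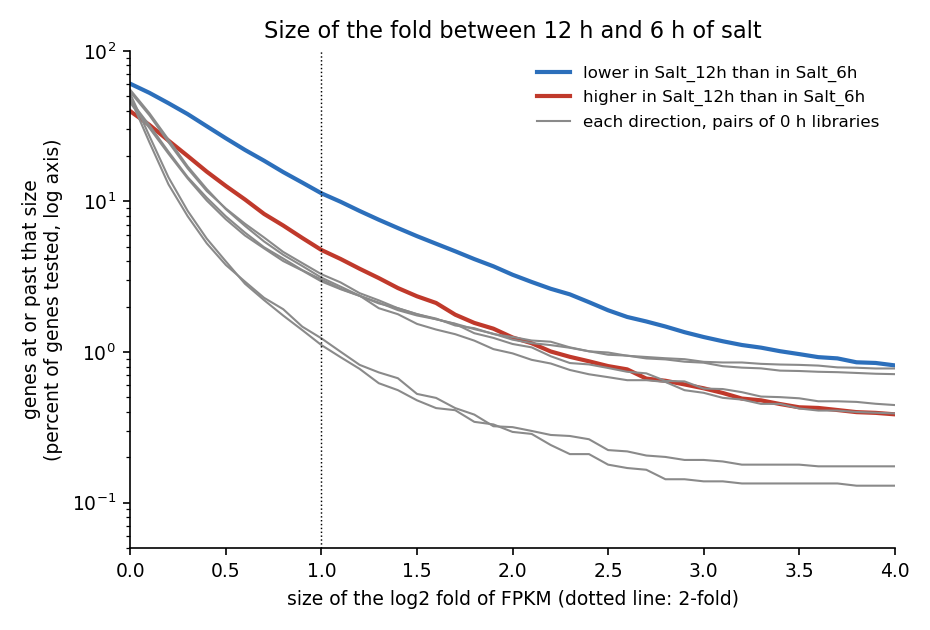
Percent of the genes tested (log axis) at or past each size of log2 fold, for genes lower and higher in Salt_12h than in Salt_6h and, in grey, for each direction between pairs of 0 h libraries. The line of lower genes stays above the grey lines over the sizes drawn and passes 2-fold at 11.3%; the line of higher genes passes 2-fold at 4.75% and meets the upper grey lines near 4-fold.

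Calls stood out from the 0 h libraries most at high levels. Among genes with 1 to 2 FPKM in the higher library, 36.8% were past 2-fold in the salt step and 12.1% to 27.9% between 0 h libraries. At 5 to 20 FPKM these shares were 11.1% and 0.499% to 1.92%, and at 20 to 100 FPKM 6.71% and 0.062% to 0.282%. Of the 964 most abundant genes, with at least 100 FPKM, 48 were higher and 47 lower at 12 h (9.85%), while no gene of this level was past 2-fold in any of the 3 pairs at 0 h. Abundant transcripts were therefore called in equal numbers in both directions, and the larger number of lower genes lay under 100 FPKM. A further 71 of the calls had no fragment at 6 h, and 140 had none at 12 h. These were low genes, with at most 6.08 FPKM at 12 h in the first group and at most 10.5 FPKM at 6 h in the second, and the median gene rested on 3 and 9 fragments in the library where it was seen.

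**Figure D2:**
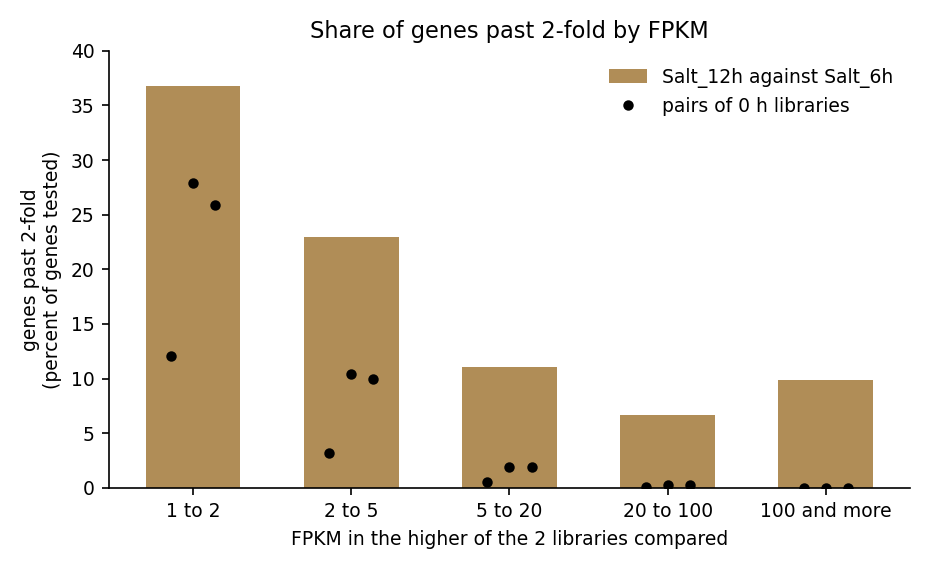
Percent of the genes tested that were past 2-fold, by the FPKM in the higher of the 2 libraries compared, for Salt_12h against Salt_6h (bars) and for the 3 pairs of 0 h libraries (points). The bars lie above the points in every class of level, and from 20 FPKM on the points are at most 0.282% beside bars of 6.71% and 9.85%.

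The salt step called a larger share of genes than the steps measured beside it. The same step called 9.68% of the genes tested in drought (891 or 4.07% higher and 1230 or 5.62% lower) and 9.74% in cold (994 or 4.52% higher and 1147 or 5.22% lower), and from 2 h to 6 h of salt 9.86% were called (1175 or 5.14% higher and 1080 or 4.72% lower). Before centring, the numbers of higher genes were thus similar in the 4 steps. The salt step from 6 h to 12 h stood apart by its 2584 lower genes. Its median log2 fold was -0.13, against -0.03 in drought, 0.0 in cold and 0.06 from 2 h to 6 h of salt. After centring it had 1396 higher and 2180 lower genes, and the other steps were not counted after centring. Of the 2584 lower genes, 325 were also called lower in the drought step (12.6% of the salt list and 26.4% of the drought list). In the cold step 184 were (7.12% and 16.0%). For higher genes 140 were shared with drought (12.9% of the salt list and 15.7% of the drought list) and 135 with cold (12.4% and 13.6%). Calls in the opposite direction were also made. Of the genes higher in salt that passed the filter there, 101 (13.6%) were lower in the drought step and 50 (8.24%) in cold. Over all genes tested these shares were 4.84% and 4.57%. Of the genes lower in salt, 136 (6.76%) were higher in drought and 131 (6.05%) in cold, against 3.09% and 3.5%. In the steps of all 3 stresses, 18 genes were called higher (1.66% of the salt list) and 31 lower (1.2%). The share of all genes called in both other steps was not counted, so that these numbers are given as a description.

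To ask which changes were new at 12 h, each called gene was placed by its distance to Salt_0h, under the same rule of 2-fold with at least 1 FPKM in either library. A gene counted as within 2-fold of 0 h may therefore have had any fold to 0 h where both libraries were under 1 FPKM. Of the genes tested against Salt_0h, 26.4% were past 2-fold at 2 h, 30.8% at 6 h and 44.2% at 12 h, and those lower than at 0 h numbered 3405 (14.5%), 3874 (16.4%) and 6469 (27.4%). The libraries Salt_0h and Salt_6h enter both the class and the step, so that the numbers of genes in each class describe the course and are not independent counts. By this rule the largest class was new, with 1383 of the 3670 called genes (37.7%). These were within 2-fold of 0 h at 2 h and at 6 h and past it at 12 h. Another 997 (27.2%) were past 2-fold at 6 h and moved further in the same direction. The order of these 2 classes depends on the settings. With no FPKM filter on the fold to 0 h there were 1176 new and 1200 further genes. With a threshold of 1.5-fold there were 1832 and 3011. Under the main rule, 512 (14.0%) were past 2-fold at 6 h and no longer past it at 12 h (back). Of these, 338 had a fold to 0 h of less than 2 at 12 h, and the other 174, all lower at 12 h than at 6 h, were under 1 FPKM at both 12 h and 0 h. The remaining genes were 270 that had left 0 h at 2 h, were within 2-fold at 6 h and left it again on the same side (returning), 83 that left it on the other side than at 2 h (turned), 94 that came only part of the way back, 19 that crossed 0 h to the other side, and 312 with neither end past 2-fold of 0 h.

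**Figure D3:**
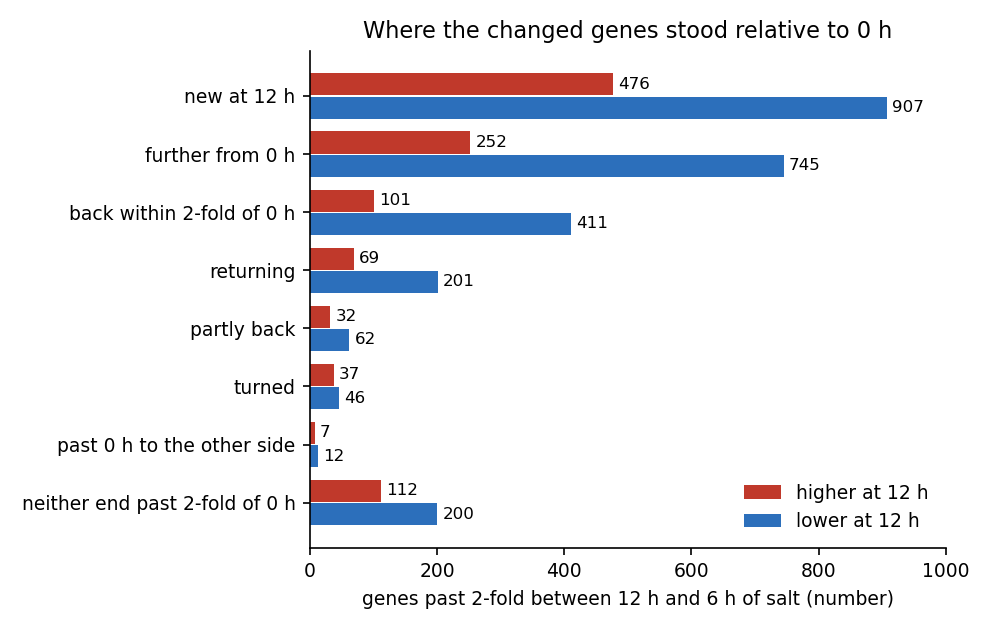
Number of genes past 2-fold between 12 h and 6 h of salt, by where they stood relative to Salt_0h, with genes higher at 12 h above those lower at 12 h. New genes (476 higher, 907 lower) and genes moving further (252 and 745) outnumber those back within 2-fold of 0 h or under 1 FPKM at both 12 h and 0 h (101 and 411).

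Most of the new genes were lower at 12 h after a level within 2-fold of 0 h until 6 h. The 907 new and lower genes had a median of 5.46 FPKM at 0 h, 4.33 at 6 h and 1.45 at 12 h, and a median log2 fold to 0 h of -0.35, -0.38 and -1.93 at 2, 6 and 12 h. The difference between 12 h and 6 h exceeded the range at 0 h in 888 of them, and the counting interval lay wholly past 2-fold in 417. The 476 new and higher genes were transcripts of low level, with medians of 0.296 FPKM at 0 h, 0.625 at 6 h and 2.29 at 12 h, and 95 of them had at least 10 FPKM in the higher library. Of these 476, 390 exceeded the range at 0 h and 172 had an interval wholly past 2-fold. When the fold to 0 h was taken without an FPKM filter, an alternative chosen after seeing the data, the new genes were 248 higher and 928 lower, since low genes of 0 h then counted as already past 2-fold before 12 h.

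Genes that moved further included many of high level at 12 h or at 0 h. The 252 that were already raised at 6 h and higher again at 12 h together reached 11319 FPKM at 12 h, against 4409 FPKM at 6 h and 797 FPKM at 0 h, and their median log2 fold to 0 h was 1.54, 2.13 and 3.6 at 2, 6 and 12 h. The 745 that were already lowered and lower again held 2401 FPKM at 12 h, against 7009 FPKM at 6 h and 20935 FPKM at 0 h, with a median log2 fold to 0 h of -1.25, -1.48 and -3.26. Their median gene had 11.2 FPKM at 0 h and 1.06 FPKM at 12 h. The step exceeded the range at 0 h in 733 of these 745 genes. Centring on the median changed the split to 369 higher and 600 lower genes, and without the FPKM filter on the fold to 0 h it was 455 and 745.

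The genes away from 0 h at 6 h were followed to 12 h. Of the 3396 genes raised past 2-fold at 6 h (14.4% of those tested against 0 h), 485 (14.3%) were called towards 0 h at 12 h and 252 (7.42%) were called further away, and 75.4% were still past 2-fold at 12 h. Of the 2846 genes lowered at 6 h that were among the genes tested, 140 (4.92%) were called towards 0 h and 745 (26.2%) further away, and 86.4% were still past 2-fold. The rest of the 3874 genes lowered at 6 h were under 1 FPKM at both 6 h and 12 h and are left out. A lowered gene under 1 FPKM at 6 h enters only if it reached 1 FPKM at 12 h. This filter raises the share called towards 0 h and can lower the share still past 2-fold. Over genes above 0 in all libraries concerned, the median log2 fold to 0 h of the lowered genes was -1.89 at 12 h and -1.39 at 6 h, whereas that of the raised genes was 1.77 at 12 h and 1.62 at 6 h. For raised genes, towards 0 h means lower at 12 h, as 11.3% of all genes tested were, and for lowered genes it means higher at 12 h, as 4.75% were. The share of lowered genes called towards 0 h, 4.92%, was thus near its background, and that of raised genes, 14.3%, was a little above it. The shares called further away were 26.2% for lowered genes, beside 11.3%, and 7.42% for raised genes, beside 4.75%. Both sets of counts use Salt_6h for the departure and for the step.

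The 411 raised genes counted as back had a median of 0.18 FPKM at 0 h, 1.68 at 6 h and 0.491 at 12 h. Of these, 209 had already been raised past 2-fold at 2 h under the rule with the FPKM filter, and 201 counted as within 2-fold then. The 201 may include genes with any fold where both 2 h and 0 h were under 1 FPKM. Without the filter, the median log2 fold to 0 h of the 411 at 2 h was 2.47 and the lower quartile 1.0. Most of the 411 were thus at least 2-fold above 0 h at 2 h already. These genes were low, 293 of them exceeded the range at 0 h, 275 had a counting interval off no change, and 39 had at least 10 FPKM in the higher library. Of the 411, 237 had a fold to 0 h of less than 2 at 12 h and 174 were only under 1 FPKM at both times. The 101 lowered genes that came back, all with a fold to 0 h of less than 2, had medians of 3.07 FPKM at 0 h, 0.8 at 6 h and 2.56 at 12 h, and 69 of them were already low at 2 h. Only 7 lowered genes were past 2-fold above 0 h at 12 h, and only 12 raised genes were past 2-fold below it. With a filter of at least 5 FPKM, chosen after seeing the data, the genes back within 2-fold were 22 higher and 91 lower. Without a filter on the fold to 0 h, also chosen after seeing the data, they were 113 higher and 237 lower, and when the fold had to hold against each of the 3 libraries at 0 h, 56 higher and 290 lower.

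The same genes were then read under drought and cold, whose libraries are not shared with the salt course. Of the 907 genes new and lower in salt at 12 h, 409 (45.1%) were past 2-fold lower in Drought_6h than in Drought_0h, against 21.3% of all genes tested in the salt step and a share called lower of 24.7% in that comparison. At 12 h of drought 466 of them (51.4%) were lower, against 21.9% of the genes tested and 25.3% in that comparison. In drought 434 of the 907 (47.9%) had passed 2-fold lower by 2 h or 6 h, against 23.0% of the genes tested in the salt step. Another 102 (11.2%) first did so at 12 h, against 4.04%. In cold 186 of them (20.5%) were past 2-fold lower at 12 h, against 12.2% of the genes tested and 14.6% called lower in that comparison. Many genes that were within 2-fold of 0 h until 6 h in salt were thus already past 2-fold lower at 6 h in drought. The class was chosen for being within 2-fold at Salt_6h, so that its late fall in salt is set by that choice. The seedlings of the 2 stresses were handled in different ways, and no test of the difference in timing was possible with 1 library each.

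Genes that moved further down in salt were shared with drought to a larger extent. They were chosen for being past 2-fold lower at Salt_6h already, and the share among all genes lowered at Salt_6h was not counted. The sharing therefore cannot be assigned to the step from 6 h to 12 h. Of the 745, 648 were past 2-fold lower in Drought_6h than in Drought_0h. This was 87.6% of the 740 that passed the FPKM filter there, against 22.3% of all genes tested that passed it. Among those that passed, the median log2 fold to 0 h in drought was -0.82 at 2 h, -2.37 at 6 h and -2.45 at 12 h. In cold 234 of the 745 were lower at 12 h (31.5% of 744, against 13.2% of all genes tested that passed the filter), with a median of -0.64. Of the 252 genes that moved further up, 148 were past 2-fold higher at 6 h of drought, where 14.1% of genes were called higher, and 46 at 12 h of cold, where 6.88% were. The 476 new and higher genes were past 2-fold higher in 114 cases (23.9%) at 12 h of drought, against 11.7% of the genes tested and 12.8% called higher in that comparison, and in 55 cases (11.6%) at 12 h of cold, against 5.72% and 6.88%.

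**Figure D4:**
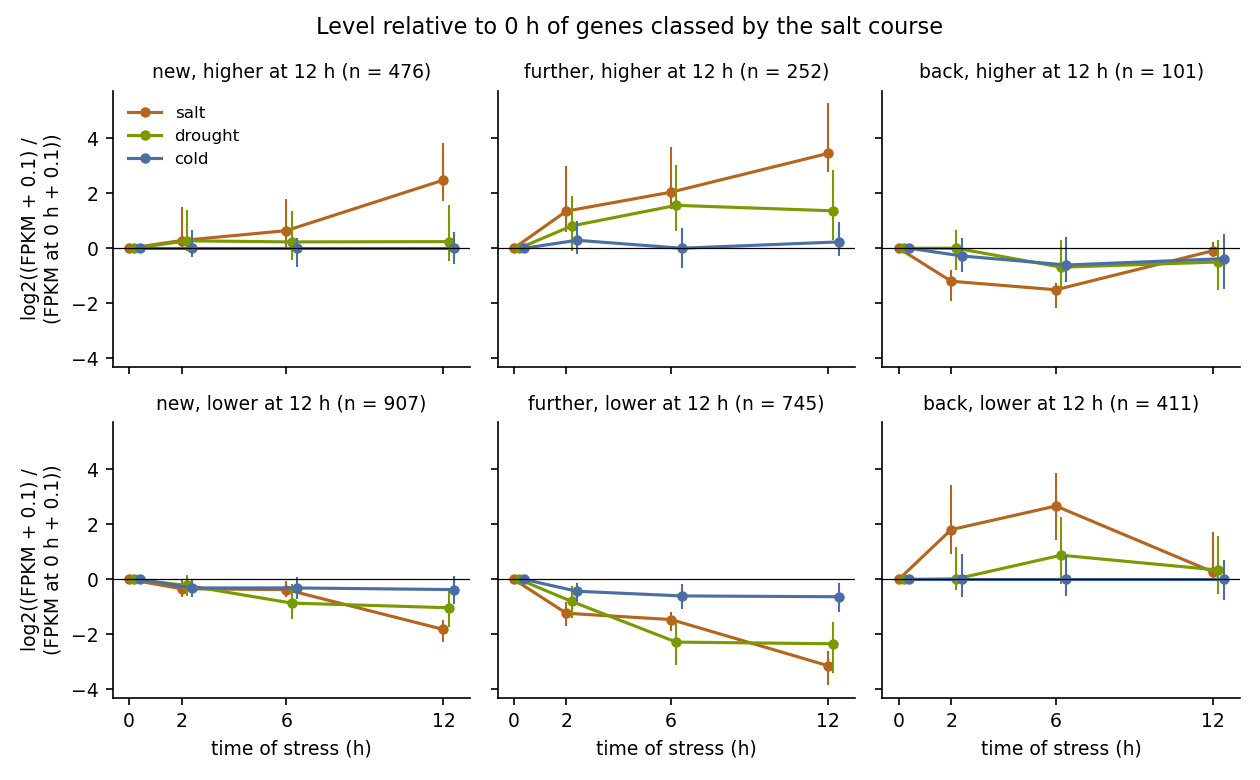
Median log2 of (FPKM + 0.1) relative to (FPKM at 0 h + 0.1) over 0, 2, 6 and 12 h of salt, drought and cold, for genes classed by the salt course as new, further or back and as higher or lower at 12 h. Vertical lines span the middle 50% of genes and the courses are drawn slightly apart; genes new and lower in salt lie near 0 in salt until 6 h, whereas in drought their median is -0.86 at 6 h.

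Of the 25 *MtSWEET* genes, 11 were tested and 4 were called (36.4%, against 16.1% of all genes tested), namely *MtSWEET1a* higher and *MtSWEET3c*, *MtSWEET15c* and *MtSWEET16* lower at 12 h. The median log2 fold of the 11 was -0.40, against -0.13 over all genes tested. Each *MtSWEET* gene is 1 of few, so that the share is given as a description of the 11. The other 14 had at most 0.808 FPKM at 12 h and 0.737 FPKM at 6 h, with no more than 15 and 18 fragments, and among them were 6 of the 7 genes of clade II.

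Within clade I, whose *Arabidopsis* members carry mainly hexoses, genes went different ways. *MtSWEET1a* (MTR_1g029380) had 1.2, 2.28, 2.79 and 15.6 FPKM at 0, 2, 6 and 12 h of salt. It was 1.22 above 0 h on the log2 scale at 6 h, and 5.57-fold higher at 12 h than at 6 h (log2 2.48, 95% counting interval 2.09 to 2.89; 248 against 68 fragments), and its range over the 0 h libraries was 0.36. *MtSWEET3c* (MTR_1g028460) had 14.0, 6.27, 3.47 and 1.57 FPKM at 0, 2, 6 and 12 h. It was lower at each later time, and its step of -1.14 (-1.80 to -0.53) took it further from 0 h. *MtSWEET2b* had 43.7 FPKM at 12 h and 26.9 FPKM at 6 h, a log2 fold of 0.70 that is under 2-fold but far larger than its range of 0.02 at 0 h. *MtSWEET2a* had 1.64 FPKM at 12 h and 2.9 FPKM at 6 h (-0.82, -1.52 to -0.17).

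In clade III, whose *Arabidopsis* members carry mainly sucrose, the abundant genes stayed under 2-fold. *MtSWEET13* had 55.8, 88.1, 148 and 76.7 FPKM at 0, 2, 6 and 12 h, so that it was highest at 6 h and within 2-fold of 0 h at 12 h, but its step of -0.94 (-1.03 to -0.86) missed the threshold and the gene was not counted among those back. *MtSWEET12* had 56.7 FPKM at 12 h and 39.8 FPKM at 6 h (0.51, 0.41 to 0.61), and 74.2 FPKM at 0 h. *MtSWEET14* had 11.9 FPKM at 12 h and 15.8 FPKM at 6 h, a log2 fold of -0.40. *MtSWEET9b* had 0.0811, 1.21, 3.75 and 6.29 FPKM at 0, 2, 6 and 12 h, with a last step of 0.75 (0.27 to 1.23) that is smaller than its range of 1.34 at 0 h. *MtSWEET15c* had 0.949, 2.29, 2.47 and 0.413 FPKM, and its 5.98-fold lower value at 12 h than at 6 h rests on 7 against 64 fragments (-2.58, -3.95 to -1.46). It counts as back because both 12 h and Salt_0h are under 1 FPKM. Its range over the 0 h libraries was 1.71, with 2.51 FPKM in Cold_0h and 3.34 FPKM in Drought_0h. Against those libraries it was not raised at 6 h, so that its class rests on Salt_0h alone.

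*MtSWEET16* (MTR_2g436310), the only gene of clade IV, whose *Arabidopsis* members sit in the vacuolar membrane, had 11.8, 29.2, 8.82 and 2.49 FPKM at 0, 2, 6 and 12 h. It was raised at 2 h, near its 0 h level at 6 h and 3.54-fold lower at 12 h than at 6 h (-1.82, -2.36 to -1.33), and was thus one of the 46 genes that turned downwards. *MtSWEET7*, the only gene of clade II that was tested, had 1.21 FPKM at 12 h and 1.3 FPKM at 6 h. *ACTIN*, the control gene of the study's qRT-PCR, had 185 FPKM at 12 h and 202 FPKM at 6 h, a log2 fold of -0.13 that equals the median of all genes tested and becomes 0.0 after centring.

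**Figure D5:**
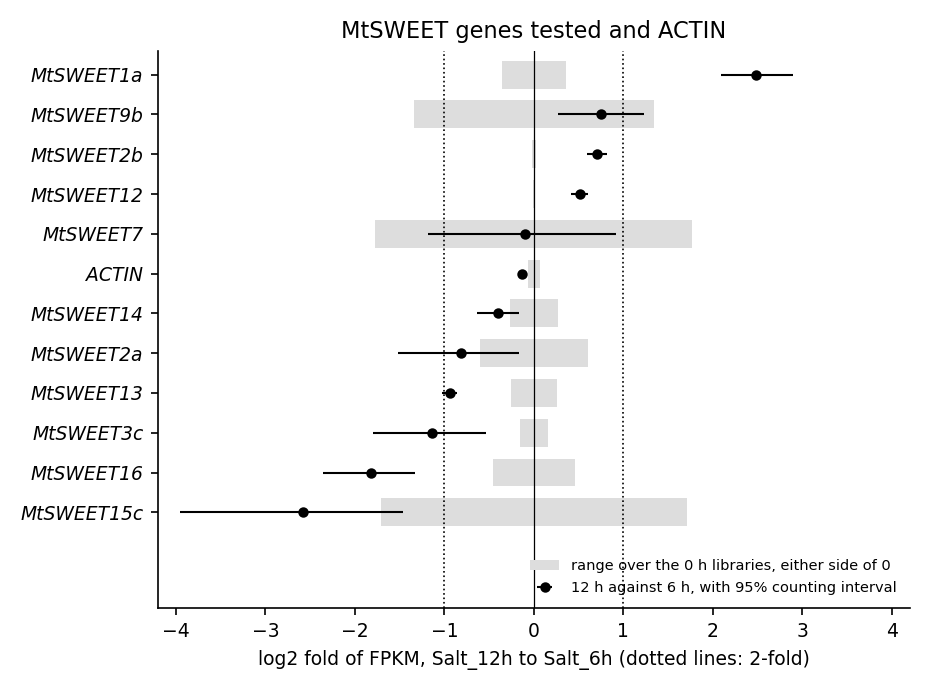
Log2 fold of FPKM of Salt_12h to Salt_6h for the 11 *MtSWEET* genes tested and *ACTIN* (points, with 95% counting intervals), with the range of each gene over the 0 h libraries on the log2(FPKM + 0.1) scale drawn to either side of 0 in grey. *MtSWEET1a* at 2.48 lies past 2-fold on the higher side, and *MtSWEET3c*, *MtSWEET16* and *MtSWEET15c* lie past it on the lower side.

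The ends of the coding sequences of *MtSWEET3c* and *MtSWEET16*, the called genes that were lower than at 0 h by 12 h and for which the study designed cloning primers, are shown by these primers. Capitals mark the coding part, from the start codon in the forward primer and from the complement of the stop codon in the reverse primer, and lower case marks the added restriction site.
*MtSWEET3c* forward: actagtATGGCAGAAACCCTTCGT
*MtSWEET3c* reverse: gtcgacCTAAGAAGTTGTCACATT
*MtSWEET16* forward: actagtATGGCAGATCCAAGTTTC
*MtSWEET16* reverse: gtcgacCTAGATAGGTAAGTTTTC

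Large folds were ranked among genes above 0 in both libraries, with at least 10 FPKM and 10 fragments in the higher library and a step beyond the range at 0 h. Of these, MTR_1g100050 and MTR_1g074230 had the largest folds up and MTR_8g479380 and MTR_3g055250 the largest folds down. No function is given for them in the sources used here. MTR_1g100050 was classed as new, with 0, 0.853, 0.277 and 18.6 FPKM at 0, 2, 6 and 12 h and a log2 step of 6.07 (5.13 to 7.21). It counts as new because 0, 2 and 6 h were all under 1 FPKM. It had 0 fragments at 0 h but already 29 at 2 h and 9 at 6 h. In drought it had 2.18 FPKM at 12 h and 2.56 FPKM at 6 h, and in cold it was at 0 at both times. MTR_1g074230 moved further, with 0.581, 3.8, 2.46 and 45.6 FPKM and a step of 4.22 (3.64 to 4.85), and its cold step was also upwards at 1.95. MTR_8g479380 had 27.8, 11.6, 13.6 and 0.235 FPKM and a step of -5.86 (-6.99 to -4.93), and in drought it was already at 2.28 FPKM at 6 h. MTR_3g055250 had 39.2, 23.5, 22.1 and 0.417 FPKM, the last from 2 fragments, and a step of -5.73 (-8.79 to -3.85). It was at 0 at 12 h of drought and at 29.2 FPKM at 12 h of cold. Both genes lowest in salt were thus also low at 12 h of drought and within 2-fold of their 0 h level at 12 h of cold.

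Calls were spread over the genome by identifier. On chromosomes 1 to 8 the share called was 14.4% (chromosome 5) to 17.9% (chromosome 6), and on unplaced scaffolds it was 23.8%. A small set of 192 identifiers beginning with EPlMTRG stood apart, with 71 higher and 51 lower at 12 h (63.5%), but 41.9% to 63.4% of such identifiers were also past 2-fold between 0 h libraries. Without them the calls were 1015 higher and 2533 lower. Neighbours in identifier order were both called higher in 70 pairs and both lower in 172 of 10988 pairs tested, and opposite in 72. When 1 gene of a pair was called lower, its neighbour was too in 15.4% of cases, against the background of 11.3%, and for higher genes in 14.8%, against 4.75%. The longest runs were 4 higher and 3 lower neighbours.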

How the data were processed

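The deposited files held FPKM values, 1 per gene and library, computed by the authors. The labels name a 3′-tag digital gene expression kit and, in the submitters' processing notes, HTSeq and DESeq, while the methods of the study name other alignment and assembly tools, so that the length used for a gene is not known and levels of different genes are compared only as FPKM. Genes were matched by identifier, and the members and lists were chosen with earlier results of these data known. Whole fragments and relative depths were recovered from the steps between low FPKM values: 37273 of 37274 genes above 0 came out whole (within 0.02 of a whole number). Folds were ratios without a pseudocount, called at 2 or 0.5 with at least 1 FPKM in either library. A gene at 0 in 1 library was called when the other was at least 1. Counting intervals were 95% Clopper-Pearson intervals on fragments and cover counting error only. Depth was 12103751 to 25205150 fragments on genes per library. With 1 library per condition and FPKM values, no count model and no test was run. Named genes were the 25 *MtSWEET* genes, *ACTIN*, and the 2 identifiers with the largest fold in each direction. The latter are the largest among identifiers above 0 in both libraries, with at least 10 FPKM and 10 fragments and a step beyond the range at 0 h. Other thresholds, filters, pseudocounts, scalings and baselines were tried. Columns were read with pandas 2.3.3, numpy 2.4.6 and scipy 1.17.1 in Python 3.11.15. The scripts were tested on simulated data. RefSeq gene names matched 0 identifiers and were not used.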

Additional observations from a re-analysis of the deposited data

Results flagged for a closer look

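*MtSWEET1a* was past 2-fold in opposite directions in the same step of 2 stresses. Its log2 fold of 12 h to 6 h was 2.48 in salt and -3.66 in drought (95% counting interval -6.76 to -1.69, from 2 fragments at 12 h and 33 at 6 h). *MtSWEET3c* had a log2 fold of -1.14 in salt and 1.69 in drought (0.85 to 2.60, from 42 and 17 fragments). In drought it had 12.5, 6.26, 0.76 and 2.45 FPKM at 0, 2, 6 and 12 h. At 12 h it was therefore below its 0 h level in both stresses. With 1 library each, the difference between the stresses was not tested.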

How the results depend on the processing

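More genes were lower than higher in all 49 counts made for the called, new, back and further genes, and 32 of 45 alternative counts stayed within 1.5 times of the main one. The number past 2-fold, 3670, became 10470 with no filter on FPKM, 1408 with at least 5 FPKM, 1987 with a pseudocount of 1, 7558 at 1.5-fold and 1703 at 3-fold. The new genes, 1383, became 1176 with no filter on the fold to 0 h and 1832 at 1.5-fold. They became 891 at 3-fold and 636 with at least 5 FPKM. The genes counted as back, 512, became 350 with no filter on the fold to 0 h, 999 at 1.5-fold, 248 at 3-fold and 113 with at least 5 FPKM. Those going further, 997, became 1200 with no filter on the fold to 0 h, 3011 at 1.5-fold, 239 at 3-fold and 385 with at least 5 FPKM. Genes going further thus outnumbered the new ones with no filter on the fold to 0 h and at 1.5-fold. The filter of 5 FPKM on the classes and the lack of a filter on the fold to 0 h were chosen after seeing the data. So were all alternatives for the genes going further. Centring on the median moved the higher share of calls to 39.0%, against 29.6%, and of those going further to 38.1%, against 25.3%. The direction of *MtSWEET7* changed on centring, with 0.03 against -0.10. Among 16 named genes, 1 call was lost: *MtSWEET3c* had -0.80 with a pseudocount of 1. No called gene changed direction. Depth limits low genes most, and a gene with fewer than 3 fragments in a library gives only a wide interval. No paired analysis was possible because each condition has 1 library and the labels give no replicate numbers.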
